A study of Homo sapiens with 8 samples.

Results

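The PRRC2 family comprises PRRC2A, PRRC2B and PRRC2C, and its peaks in 4 immunoprecipitation (IP) libraries from A172 cells, an established human glioma line, are described here. Every deposited peak whose gene column named 1 of these 3 genes was taken, which gave 1015 of 1843422 peaks. PRRC2A had 163 of them, PRRC2B 602 and PRRC2C 250. The family was chosen by the peak values of PRRC2C, which had been seen to hold many enriched PTBP1 regions in its coding sequence, so the values of PRRC2C are given as a description with no test. PRRC2A and PRRC2B entered by their name alone.

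The study mapped the RNAs bound by PTBP1 and by IGF2BP2 with eCLIP, in which proteins are crosslinked to RNA by ultraviolet light, purified, and the attached RNA is sequenced. Per the labels, all cells were fed 500 µM 4-thiouridine for 3 h, a nucleoside that makes RNA crosslink at long wavelengths, and received 2 doses of 400 mJ/cm2 at 365 nm. RNA was then cut with RNase I, and a 2% portion taken ahead of the IP served as the input. The groups were PTBP1 IP, PTBP1 input, IGF2BP2 IP and IGF2BP2 input, with 2 libraries each, and membrane was cut at about 55 to 130 kDa for PTBP1 and 65 to 140 kDa for IGF2BP2. The cells were not otherwise treated or modified. Each experiment was done 2 times, and nothing says whether separate cultures were used, so errors and p-values cover the spread between these libraries, which may be technical.

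PRRC2 proteins are large, mostly disordered proline-rich proteins that bind RNA, associate with translation initiation factors and are found in stress granules, the cytoplasmic assemblies of mRNA and protein that form when translation stalls. PRRC2A is also known as a reader of N6-methyladenosine (m6A), a modified base of mRNA, and PRRC2C for its part in stress granule formation. PTBP1, the polypyrimidine tract-binding protein, regulates splicing by binding stretches of C and U, and IGF2BP2 binds mature mRNAs, often in their 3′ UTRs.

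Each list gives a log2 value per peak, which equals the log2 ratio of IP to input reads plus a constant, and a −log10 p that stops at 400. Whole reads were recovered from both columns, all chromosomes of a library were put on 1 common scale, and a peak was called enriched when its log2 and its recomputed −log10 p were both at least 3. The 2 PTBP1 libraries had a scale constant of −0.30 and −0.08 and the 2 IGF2BP2 libraries one of 1.74 and 1.90, so fewer IP reads per input read made an IGF2BP2 peak enriched. Lists held 600615 and 538802 PTBP1 peaks and 362700 and 341305 IGF2BP2 peaks, with a median of 12 and 9 IP reads per PTBP1 peak against 4 and 4 per IGF2BP2 peak. An input of 1 read may stand for 0, and a log2 that rests on it moves much with 1 read. In eCLIP, more binding to each RNA molecule and more RNA in the cell are separated only by the input. Of 5 glioma and mesenchymal markers, VIM, CD44, FN1 and NES had peaks in all 4 lists, and CHI3L1 had 8 and 5 PTBP1 peaks and 0 and 0 IGF2BP2 peaks. Of the astrocyte genes, AQP4 and S100B had none and GFAP had 2 and 3 PTBP1 peaks and 2 and 0 IGF2BP2 peaks. Markers of other cell types also had peaks: the neuronal genes RBFOX3 and SYT1, the oligodendrocyte gene OLIG2 and the blood gene PTPRC in every list, and MBP in 3 lists, while OLIG1 and CD3E had none. These are numbers of peaks, not levels of RNA, and their part in the results was not tested.

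The first transcribed bases of the members are shown because PTBP1 peaks reached into them in PRRC2C and at an inner start of PRRC2B. Bases 21 to 50 after each start in the RefSeq table (GRCh38.p14, plus strand) follow, with bases inside a peak of PTBP1 replicate 2 in capitals.
PRRC2C, chr1:171485550-171485579: cgctcgctcgctccccctcggaaagctgCG
PRRC2A, chr6:31620735-31620764: gtgagcgagggagacgggaggagccgaacc
PRRC2B, outer start, chr9:131373671-131373700: gcgattctgggcgtgcgtgagggagggtgg
PRRC2B, inner start, chr9:131394106-131394135: accgcgcagcgacgagcgAGCCCGGGAGGA
C and T made up 72.0% of the first 50 transcribed bases of PRRC2C, above 98.1% of 35116 RefSeq windows. They made up 30% in PRRC2A, and 48.0% and 36.0% at the outer and inner start of PRRC2B, against a median of 48.0% over all windows. The letters TCTT, searched on the transcribed strand, occurred in these 50 bases of PRRC2C and in none of the windows of the other members. TCTT occurred in 16% of all windows. The 30 bases printed for PRRC2C hold no TCTT, and the peak of PTBP1 replicate 2 covered 2 of them. CTCTCT occurred in none of the 4 member windows and in 2.27% of all. These matches describe the sequence and are not mapped sites, and the window was chosen after the peaks had been seen.

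Over all annotations, 24 and 21 peaks of PRRC2C, 13 and 16 of PRRC2B and 1 and 3 of PRRC2A were enriched in the PTBP1 libraries, beside 2.94% and 2.84% of all peaks in these lists. In the IGF2BP2 libraries these numbers were 3 and 12 for PRRC2C, 12 and 19 for PRRC2B and 2 and 2 for PRRC2A, beside 9.19% and 9.35% of all peaks. Enriched in both replicates were 15 PTBP1 regions in PRRC2C, 9 in PRRC2B and 1 in PRRC2A, beside 2.33% of all reproducible PTBP1 regions, and 2, 2 and 1 IGF2BP2 regions, beside 5.95% of all reproducible IGF2BP2 regions. A reproducible region joins peaks of both replicates that overlap on the same strand.

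PRRC2C lies at chr1:171485530-171593511. Its coding sequence held 45 and 33 PTBP1 peaks in replicates 1 and 2, with a median log2 of 3.21 and 3.62, against 1.02 and 1.06 over all coding-sequence peaks of these lists. These medians lay above 93.8% and 95.9% of the coding-sequence peaks of their lists. Of the PRRC2C coding-sequence peaks, 23 and 20 were enriched, which is 51.1% and 60.6%, beside 5.93% and 5.54% of all coding-sequence peaks in the same lists. No coding-sequence PTBP1 peak of PRRC2C had a log2 below 0 in either replicate.

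The reads behind these peaks were many. Among the coding-sequence PTBP1 peaks of PRRC2C, 41 in replicate 1 had recovered reads, which summed to 8491 IP reads and 1159 input reads. In replicate 2, 30 peaks summed to 5080 IP reads and 792 input reads. The median peak held 186 IP and 16 input reads in replicate 1, and 156.5 IP and 13 input reads in replicate 2. The fewest IP reads recovered in any of these peaks were 47 in replicate 1 and 39 in replicate 2.

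**Figure D1:**
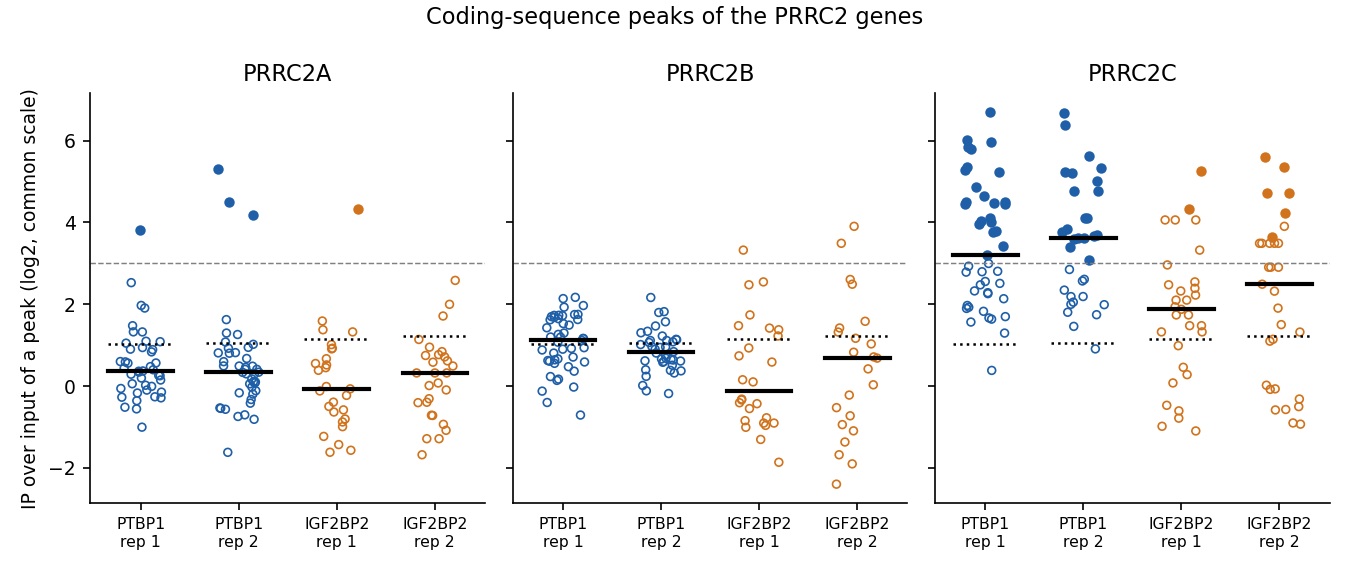
Log2 ratio of IP to input (common scale, y axis) of every coding-sequence peak of PRRC2A, PRRC2B and PRRC2C in the 2 PTBP1 and 2 IGF2BP2 libraries. Filled points are enriched peaks, solid bars the gene's median, dotted bars the median of all coding-sequence peaks of that list, and the dashed line a log2 of 3. The PTBP1 medians of PRRC2C are 3.21 and 3.62, above the list medians, while those of PRRC2A are 0.37 and 0.34, below them.

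PRRC2C had 25 reproducible PTBP1 regions in coding sequence, and 15 of them (60%) were enriched in both replicates, beside 4.61% of all coding-sequence PTBP1 regions. By that number PRRC2C ranked 4 among the 1073 genes with any such region. The 15 enriched regions were 24 to 385 nt long, covered 1515 nt in sum and were spread over 68.4 kb, from chr1:171515734-171515771 to chr1:171584137-171584160. Joining regions that lay within 50 nt of each other left 14.

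The broadest enriched region, of 385 nt at chr1:171532343-171532727, joined 7 peaks of PTBP1 replicate 1 and 3 of replicate 2. Its highest log2 was 5.79 in replicate 1 and 5.02 in replicate 2, and the −log10 p of these peaks was at the limit of 400. Their deposited ratios need at least 547 IP to 8 input reads in replicate 1 and 445 IP to 13 input reads in replicate 2. The signal was uneven within it. The 3 downstream peaks of replicate 1 had a log2 of 1.90, 1.70 and 1.64, with 170, 328 and 345 IP reads, and were not enriched.

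At chr1:171522220-171522259 the highest log2 was 6.70 in PTBP1 replicate 1, from 128 IP reads to 1 input read, and 6.38 in replicate 2, from 88 to 1. A region of 119 nt at chr1:171517592-171517710 reached 5.84 and 6.68 from 141 IP to 2 input reads and 108 to 1. Further downstream, chr1:171566641-171566742 reached 6.02 and 5.34, from 240 IP to 3 input reads and 171 to 4. Both replicates placed these 3 regions among the highest of the gene, and in each the input held at most 4 reads.

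A block of 7 coding-sequence regions between chr1:171540190 and chr1:171542227 covered 894 nt over 2.04 kb, and 3 of the 7 were enriched in both replicates. The other 4 had between 113 and 442 IP reads in their deepest recovered peak where reads were recovered. At chr1:171541434-171541624 the highest log2 was 2.51 in replicate 1, from 288 IP to 41 input reads, and 2.61 in replicate 2, from 238 to 37. Deeper peaks in the same region, of 442 IP to 101 input reads and 346 to 72, had a lower log2 of 1.83 and 2.19. Deep IP coverage thus stood beside deep input in this region, which was not enriched in either replicate.

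Outside its coding sequence PRRC2C had few PTBP1 peaks, so 1 peak moves their enriched share much. Its introns held 13 and 13 PTBP1 peaks with a median log2 of 1.18 and 0.92, of which 1 and 0 were enriched, beside 2.45% and 2.4% of all intron peaks. None of its 9 reproducible PTBP1 intron regions was enriched in both replicates, beside 1.89% of all intron regions. The 5′ UTR had 2 and 4 PTBP1 peaks, with a median log2 of 1.97 and 1.95 against list medians of 0.64 and 0.66. The region at chr1:171485578-171485665, which begins at the capitals shown above, had a highest log2 of 2.60 from 135 IP to 18 input reads in replicate 1 and 3.81 from 74 to 5 in replicate 2, so only replicate 2 passed the bar. Among 5′ UTR peaks of PTBP1, 0 of 2 in replicate 1 and 1 of 4 in replicate 2 were enriched, beside 2.19% and 1.99% of all such peaks, and 0 of its 2 reproducible 5′ UTR regions, beside 1.32%. No PTBP1 peak was assigned to the 3′ UTR of PRRC2C in either list.

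IGF2BP2 libraries gave PRRC2C 31 and 31 coding-sequence peaks with a median log2 of 1.88 and 2.49, against list medians of 1.15 and 1.23. Of these, 2 and 6 were enriched, which is 6.45% and 19.4%, beside 5.35% and 5.8% of all coding-sequence IGF2BP2 peaks. Its introns held 36 and 37 IGF2BP2 peaks, of which 1 and 5 were enriched, beside 8.69% and 8.82% of all intron peaks. The median IGF2BP2 coding-sequence peak held 7 IP and 6 input reads in replicate 1 and 5 IP and 2 input reads in replicate 2, far fewer than a PTBP1 peak of the same gene.

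Among 16 reproducible coding-sequence IGF2BP2 regions of PRRC2C, 2 (12.5%) were enriched in both replicates, beside 3.38% of all coding-sequence IGF2BP2 regions. The stronger, chr1:171579867-171579917, had a log2 of 5.26 from 23 IP to 2 input reads in replicate 1 and 5.61 from 13 to 1 in replicate 2. It lay 4219 nt upstream of the nearest PTBP1 coding-sequence region, chr1:171584137-171584160. The other, chr1:171557505-171557524, had 6 IP reads to 1 input read in replicate 1 and 7 to 1 in replicate 2, and lay 170 nt from a PTBP1 region that was not enriched. Neither overlapped a PTBP1 region.

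In the coding sequence of PRRC2C, 8 of 25 PTBP1 regions (32.0%) overlapped an IGF2BP2 region, and 12 of 16 IGF2BP2 regions (75%) overlapped a PTBP1 region. Over all genes, 19.6% of coding-sequence PTBP1 regions and 58.0% of coding-sequence IGF2BP2 regions did so, and the difference was not tested. Among the PRRC2C regions, 4 IGF2BP2 regions lay on the broad PTBP1 site at chr1:171532343-171532727. Their highest IGF2BP2 log2 in replicates 1 and 2 was 1.88 and 4.23, 1.32 and 2.32, −1.10 and −0.93, and −0.98 and −0.58 in order along the gene. None of these was enriched in both IGF2BP2 replicates, and the downstream pair had more input than IP signal on the common scale.

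**Figure D2:**
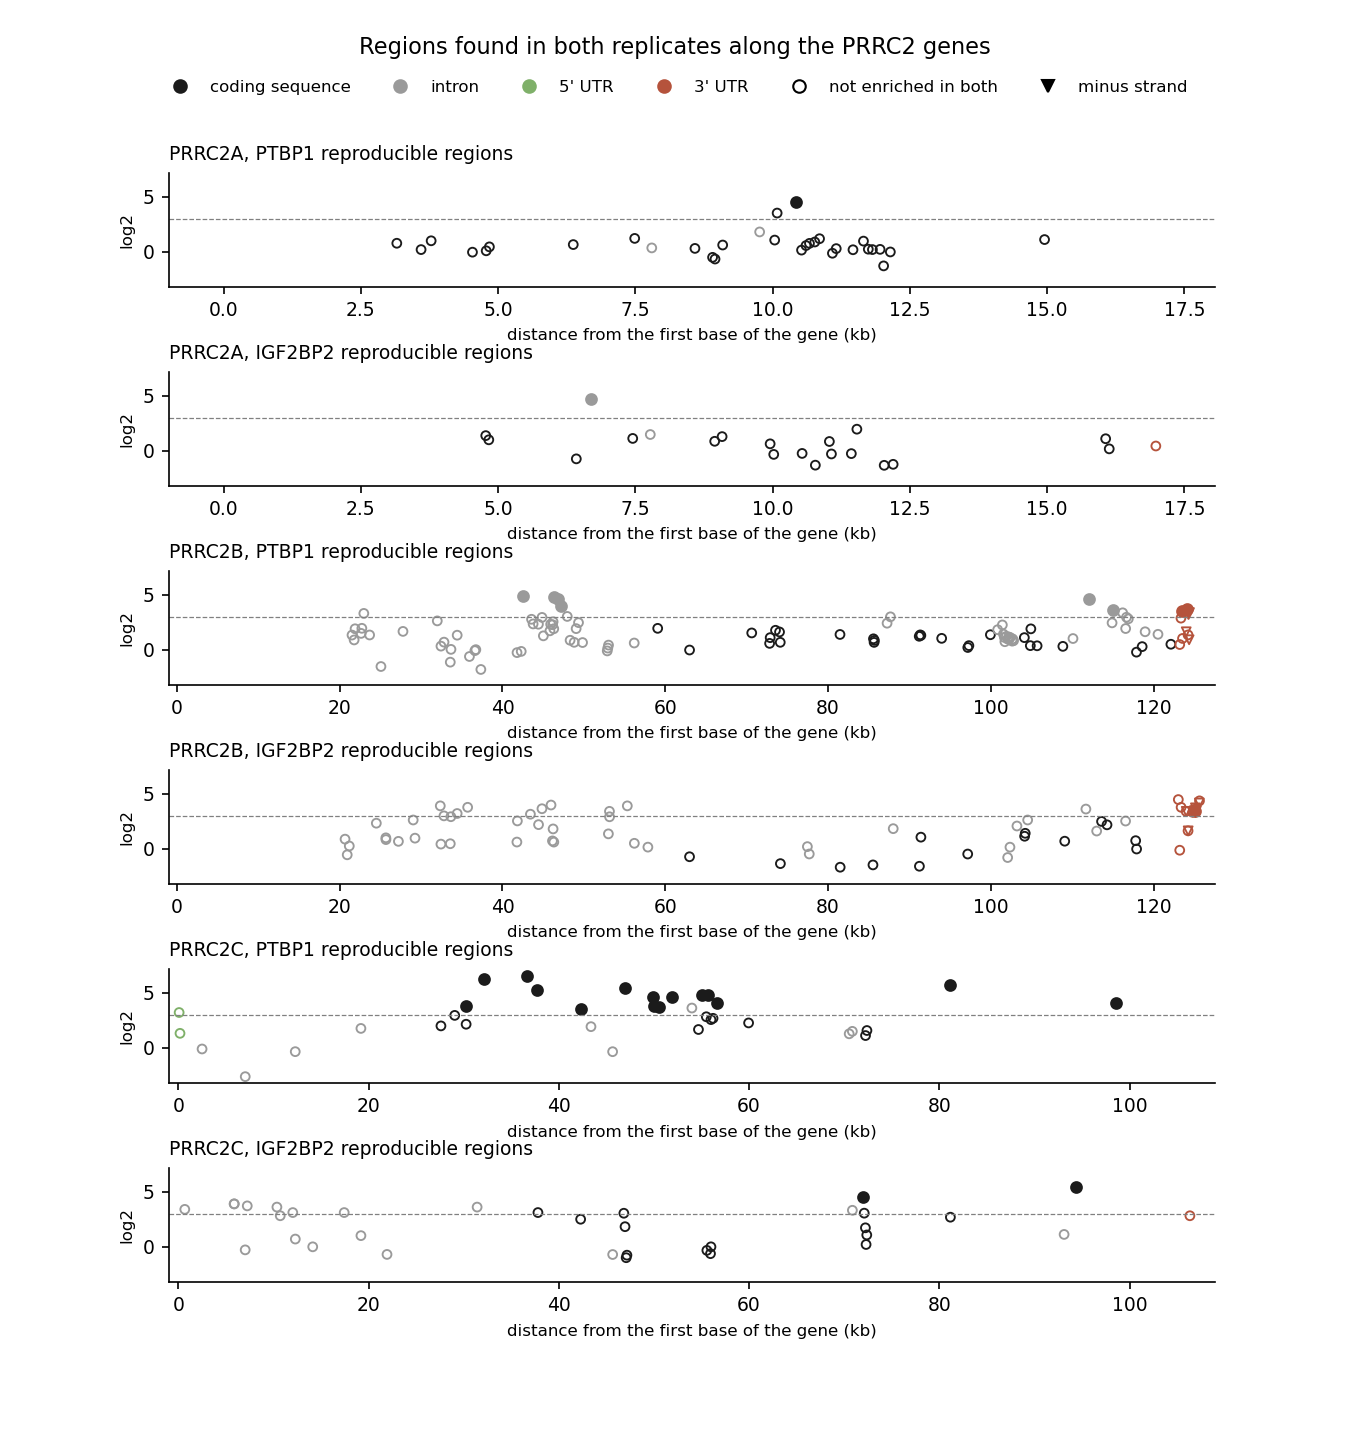
Reproducible PTBP1 and IGF2BP2 regions along PRRC2A, PRRC2B and PRRC2C, by distance from the first base of the gene (kb, x axis) and mean over both replicates of the highest log2 (y axis). Filled symbols are enriched in both replicates, triangles lie on the minus strand, colours give the annotation and the dashed line marks a log2 of 3. The 15 enriched PTBP1 regions of PRRC2C are all in coding sequence, while the 9 of PRRC2B are 6 in introns and 3 in the 3′ UTR.

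**Figure D3:**
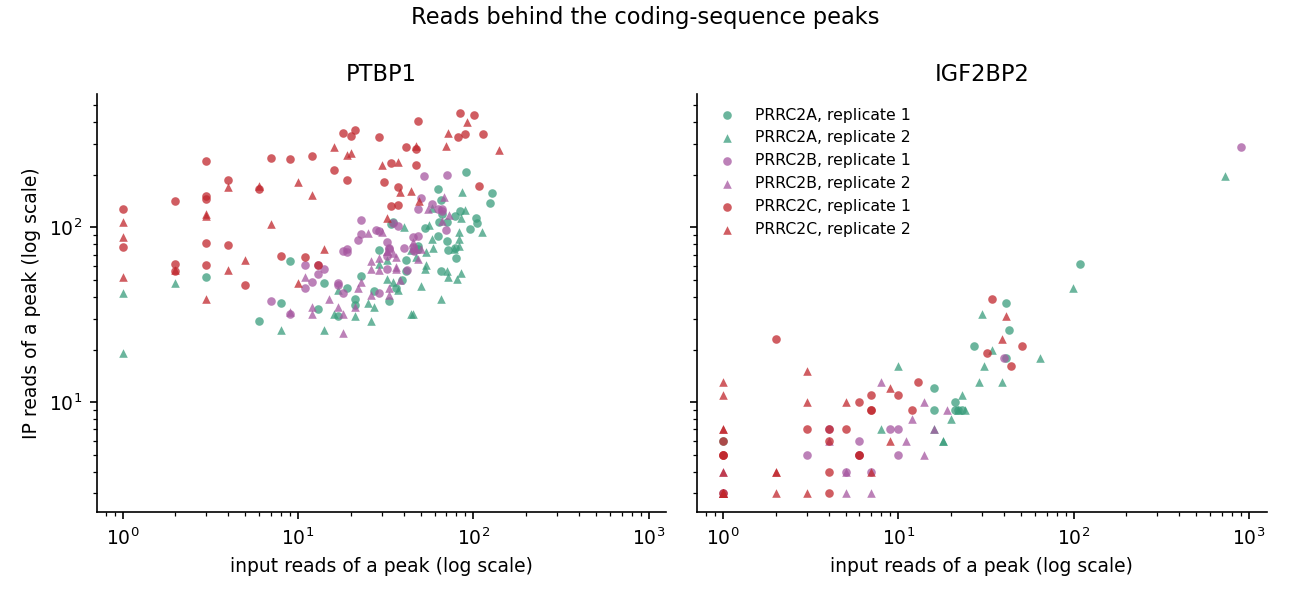
IP reads (y axis, log scale) against input reads (x axis, log scale) of the coding-sequence peaks with recovered reads, for PTBP1 and IGF2BP2. Circles are replicate 1 and triangles replicate 2. PTBP1 peaks of PRRC2C have a median of 186 and 156.5 IP reads over 16 and 13 input reads, and those of PRRC2A 74.5 and 55.5 IP reads over 48 and 48.5 input reads.

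PRRC2B, at chr9:131373651-131500193, had its enriched PTBP1 peaks in introns and the 3′ UTR. PTBP1 replicates 1 and 2 had 46 and 39 coding-sequence peaks there with a median log2 of 1.14 and 0.84, close to the list medians of 1.02 and 1.06. The highest was 2.17 and 2.16. None of these peaks was enriched, which with 46 and 39 peaks allows a share of up to 7.71% and 8.97% (upper 95% Wilson bound), above the 5.93% and 5.54% of all coding-sequence peaks. None of the 27 reproducible coding-sequence PTBP1 regions of PRRC2B was enriched in both replicates, beside 4.61% of all such regions.

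Depth was not low in these coding-sequence peaks. The median PTBP1 peak of the PRRC2B coding sequence held 76 IP and 32 input reads in replicate 1 and 58.5 IP and 31 input reads in replicate 2. The IP reads were fewer than in PRRC2C, and the input reads more numerous.

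Introns of PRRC2B held 102 and 97 PTBP1 peaks with a median log2 of 1.28 and 1.51, and 10 and 12 of them were enriched (9.80% and 12.4%), beside 2.45% and 2.4% of all intron peaks. Of 70 reproducible intron regions, 6 (8.57%) were enriched in both PTBP1 replicates, beside 1.89% of all such regions. Among these, 4 lay in a cluster of 18 PTBP1 regions spanning 6.60 kb. The first was chr9:131416123-131416213, where the log2 was 6.45 from 108 IP reads to 1 input read in replicate 1 and 3.36 from 65 to 6 in replicate 2. At chr9:131420510-131420547 the log2 was 5.28 and 3.99, from 144 IP to 3 input reads and 117 to 7. The deepest of the 4, chr9:131420766-131420895, had 567 IP to 32 input reads in its replicate 1 peak and 435 to 23 in the deeper of its 2 replicate 2 peaks, a log2 of 3.84 and 4.16. All 4 were enriched in both replicates, and none overlapped a reproducible IGF2BP2 region.

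Another enriched intron region, chr9:131485693-131485749, lay inside SNORD62A (chr9:131485665-131485750), a C/D box small nucleolar RNA whose gene sits in an intron of PRRC2B. Its peaks had 56 IP to 3 input reads in PTBP1 replicate 1 and 43 to 1 in replicate 2. IGF2BP2 replicate 2 also had an enriched peak there, with 17 IP reads to 1 input read, and IGF2BP2 replicate 1 had none. SNORD62B (chr9:131490486-131490571), a near-identical copy, held PTBP1 peaks of up to log2 2.64 in replicate 1, from 23 IP to 3 input reads, and 2.98 in replicate 2, from 25 to 3, which were not enriched. An enriched peak of IGF2BP2 replicate 2 lay there too, with a log2 of 4.90 from 8 IP reads to 1 input read, and IGF2BP2 replicate 1 had none. Counting could split reads between the 2 copies, so their values are uncertain. Without the region in the snoRNA, 5 enriched intron regions of PTBP1 were left in PRRC2B.

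The 3′ UTR of PRRC2B had 12 PTBP1 peaks in each replicate, with a median log2 of 1.52 and 1.49 against list medians of 0.57 and 0.61 for 3′ UTR peaks. Of them 3 and 4 were enriched, beside 2.22% and 2.15% of all 3′ UTR peaks. Of 9 reproducible PTBP1 regions there, 3 (33.3%) were enriched in both replicates, beside 1.63% of all 3′ UTR regions of PTBP1. On the plus strand these were chr9:131497107-131497155, with 119 IP to 9 input reads in replicate 1 and 104 to 8 in replicate 2, and chr9:131497777-131497843, with 102 to 5 and 94 to 9. The third, chr9:131497748-131497957 on the minus strand, overlapped the second and had a similar depth, with 122 IP to 10 input reads and 111 to 10 in its enriched peaks. With regions on the minus strand left out, 2 enriched 3′ UTR regions remained.

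Every PRRC2B peak on the minus strand was assigned to its 3′ UTR. There were 5 and 4 such peaks for PTBP1 and 10 and 9 for IGF2BP2. They overlapped plus-strand peaks of the same library in 3 and 4 pairs for PTBP1 and in 9 and 9 pairs for IGF2BP2. In IGF2BP2, 6 and 7 of these pairs had exactly the same IP and input reads on both strands, against 0 and 0 in PTBP1. Whether the 2 strands hold the same fragments was not tested.

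IGF2BP2 peaks of PRRC2B numbered 30 and 20 in the 3′ UTR, with a median log2 of 2.74 and 3.32 against list medians of 2.74 and 2.80. Enriched were 6 and 11 of them (20% and 55%), beside 20.9% and 20.9% of all 3′ UTR peaks of IGF2BP2. Of 15 reproducible 3′ UTR regions, 2 (13.3%) were enriched in both replicates, beside 18.6% of all such IGF2BP2 regions. They were the 2 strands of 1 place, chr9:131498660-131498717 on the plus strand and chr9:131498671-131498737 on the minus strand, each with 10 IP to 3 input reads in replicate 1 and 8 to 3 in replicate 2. Left without the minus strand, there was 1. The annotated pseudogene LOC124902290 covers part of this 3′ UTR and held 7 and 5 of the IGF2BP2 peaks.

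Introns and coding sequence of PRRC2B showed no IGF2BP2 region enriched in both replicates, out of 41 and 14, beside 4.87% of all intron and 3.38% of all coding-sequence regions of IGF2BP2. Its coding-sequence IGF2BP2 peaks had a median log2 of −0.11 and 0.68, and the intron peaks 2.37 and 2.15. In replicate 1, a single coding-sequence peak held 288 of the 359 recovered IP reads and 896 of the 997 input reads. That peak lay at chr9:131478499-131478526 and had a log2 of 0.10, so it was not enriched.

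PRRC2A, at chr6:31620715-31637771, is the shortest gene of the family. PTBP1 replicates 1 and 2 had 43 and 43 coding-sequence peaks, with a median log2 of 0.37 and 0.34, which lay above 26% and 24.4% of the coding-sequence peaks of their lists. Of these, 1 and 3 were enriched (2.33% and 6.98%), beside 5.93% and 5.54% of all coding-sequence peaks, so PRRC2A was near the share of its lists. The median peak held 74.5 IP and 48 input reads in replicate 1 and 55.5 IP and 48.5 input reads in replicate 2, the deepest input of the 3 members.

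Of 30 reproducible coding-sequence PTBP1 regions of PRRC2A, 1 (3.33%) was enriched in both replicates, beside 4.61% of all such regions. It measured 17 nt, at chr6:31631139-31631155, and had a log2 of 3.81 from 52 IP to 3 input reads in replicate 1 and 5.32 from 42 to 1 in replicate 2. A neighbour of 10 nt, chr6:31630792-31630801, had 4.51 in replicate 2 and 2.53 in replicate 1, below the bar. The other 28 regions had a log2 of at most 1.62.

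IGF2BP2 replicates 1 and 2 had 27 and 28 coding-sequence peaks in PRRC2A with a median log2 of −0.07 and 0.32, and 1 and 0 were enriched, beside 5.35% and 5.8% of all coding-sequence peaks. None of its 18 reproducible coding-sequence regions was enriched in both, beside 3.38% of all such regions. An intron region, chr6:31627368-31627460, was enriched in both, with 9 IP reads to 1 input read in replicate 1 and 6 to 1 in replicate 2, and is 1 of 2 reproducible IGF2BP2 intron regions of the gene, beside 4.87% enriched among all. In coding sequence, 13 of 30 PTBP1 regions (43.3%) overlapped an IGF2BP2 region and 12 of 18 IGF2BP2 regions (66.7%) overlapped a PTBP1 region, beside 19.6% and 58.0% over all genes. SNORA38, a small nucleolar RNA gene inside PRRC2A, held a single PTBP1 replicate 2 peak of 8 IP reads to 1 input read.

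The annotation of the peaks set the members apart as well. In PRRC2C, coding sequence held 75% and 66% of the PTBP1 peaks and 45.6% and 43.1% of those of IGF2BP2, on average 70.5% ± 6.36 for PTBP1 and 44.3% ± 1.79 for IGF2BP2 (SD, n = 2 each), a difference of 26.2 percentage points. Its introns held 23.8% ± 3.06 of the PTBP1 peaks and 52.2% ± 1.10 of the IGF2BP2 peaks (SD, n = 2 each). Among peaks of at least 10 IP reads the direction turned: the difference was −7.28 points in coding sequence and 1.21 points in introns. The IGF2BP2 shares then rest on 12 and 9 peaks, of which 9 and 8 were in coding sequence, so 1 peak moves them much. In number, PRRC2C had 13 and 13 PTBP1 intron peaks against 36 and 37 of IGF2BP2, and 13 and 11 of the IGF2BP2 intron peaks had exactly 3 IP reads.

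In PRRC2A, coding sequence held 91.5% of the PTBP1 peaks in both replicates and 81.8% and 77.8% of the IGF2BP2 peaks, a difference of 11.7 points. In PRRC2B, it held 28.8% and 26.4% of the PTBP1 peaks and 15.9% and 17.7% of the IGF2BP2 peaks, a difference of 10.8 points. The 3′ UTR of PRRC2B held 7.80% ± 0.43 of the PTBP1 peaks and 16.8% ± 2.06 of the IGF2BP2 peaks (SD, n = 2 each), a difference of −9.03 points. Its introns held 64.6% ± 1.27 and 66.4% ± 0.76 (SD, n = 2 each), and that difference of −1.74 points turned to 11.9 points for peaks of at least 10 IP reads. The latter value rests on 17 and 20 IGF2BP2 peaks. For comparison, coding sequence held 13.3% and 13.5% of all PTBP1 peaks and 9.18% and 9.25% of all IGF2BP2 peaks.

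The shares of PRRC2C were not tested. For PRRC2A and PRRC2B, 7 annotation shares were compared by an exact permutation test (two-sided). The exact p was 0.333 for 6 of them, the smallest that 2 libraries against 2 allow, and 1.0 for the 5′ UTR of PRRC2A. After Benjamini-Hochberg adjustment over the 7, exact p = 0.389 for those 6, and no share could pass a threshold of 0.05.

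**Figure D4:**
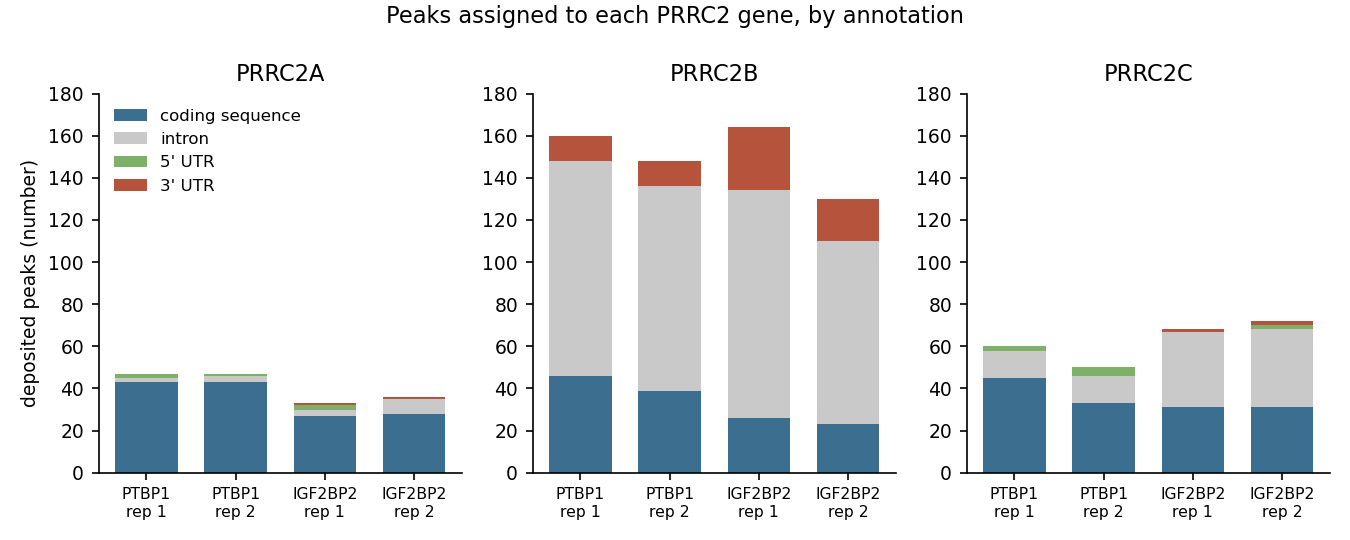
Number of deposited peaks (y axis) assigned to PRRC2A, PRRC2B and PRRC2C in each PTBP1 and IGF2BP2 library, stacked by annotation. Coding sequence makes up most PRRC2A peaks of every library, introns most PRRC2B peaks, and PRRC2C has 13 and 13 intron peaks with PTBP1 against 36 and 37 with IGF2BP2.

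Peak density asks whether a gene takes a larger share of the peaks of one protein's lists. It was the log2 of the gene's peaks, with 0.5 added, per 10000 peaks of the list, and it counts peaks whatever their enrichment. All 3 members passed the filter of 10 peaks over the 4 libraries, over all annotations and in coding sequence. Over 15145 genes, limma with Benjamini-Hochberg adjustment found a higher density in PTBP1 for 12.7% and in IGF2BP2 for 12.3%. The split was 1922 to 1860 genes, 2241 to 1489 with TMM scaling and 2787 to 1304 of 8088 genes for peaks of at least 10 IP reads.

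PRRC2A had 47 and 47 PTBP1 peaks against 33 and 36 IGF2BP2 peaks, a difference in log2 density of −0.25 ± 0.17 (PTBP1 minus IGF2BP2, SE) with an adjusted limma p of 0.298. In nucleotides covered instead of peaks the difference was −0.78 with an adjusted limma p of 0.00907. PRRC2B had 160 and 148 PTBP1 peaks against 164 and 130 IGF2BP2 peaks, a difference of −0.62 ± 0.11 (SE) with an adjusted limma p of 0.00917. Among peaks of at least 10 IP reads this turned to 0.59 ± 0.17 (SE), with an adjusted limma p of 0.0419, so the direction depends on whether shallow peaks are counted. The median over all genes moved as well, from −0.01 to 0.65. PRRC2B thus lay at percentile 48.7 of the differences among such peaks, and at 24.4 when all peaks were counted. PRRC2C had 60 and 50 PTBP1 peaks against 68 and 72 IGF2BP2 peaks, a difference of −1.04 ± 0.14 (SE), at percentile 10.8 of the differences of all genes. For PRRC2C it was −0.0041 among peaks of at least 10 IP reads, at percentile 35.3.

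Counting all peaks, PRRC2C thus had a lower density in PTBP1, while its coding-sequence PTBP1 peaks had high ratios. In coding sequence the log2 density difference was −0.38 ± 0.15 (SE) for PRRC2C, −0.61 with TMM scaling and −0.14 when only peaks with 10 or more IP reads were counted. It was −0.06 ± 0.13 (SE) for PRRC2A, with an adjusted limma p of 0.769, and 0.09 ± 0.12 (SE) for PRRC2B, with an adjusted limma p of 0.623. The median over 6008 genes was 0.54, with 16.4% called in favour of PTBP1 and 2.26% in favour of IGF2BP2. All 3 members lay below that median. For PRRC2B the small difference was −0.14 with TMM scaling, which moved the median over genes to 0.31, and −0.20 in nucleotides covered. It was 1.71 ± 0.25 (SE) with an adjusted limma p of 0.00333 among peaks of at least 10 IP reads, where the median over genes was 1.37. With TMM scaling, 742 coding-sequence genes were higher in PTBP1 and 222 in IGF2BP2, against 987 and 136 without it.

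PTBP1 peaks of all 3 members recurred between replicates more often than the average peak of their lists. PRRC2C, on whose PTBP1 values the family was chosen, is given with no interval. Of its PTBP1 peaks, 90.0% in replicate 1 and 90.0% in replicate 2 overlapped a peak of the other replicate. The share over all peaks of these lists was 55.6% and 61.5%. PRRC2A had 80.9% (67.5% to 89.6%) and 83.0% (69.9% to 91.1%) and PRRC2B 78.8% and 83.8%. Of all coding-sequence peaks in these lists, 70.5% and 74.8% recurred. In coding sequence, PRRC2A had 83.7% and 86.0%, PRRC2B 89.1% and 92.3% and PRRC2C 95.6% and 100%. The median PTBP1 peak held 71 and 51.5 IP reads in PRRC2A, 49.5 and 43 in PRRC2B and 141 and 100 in PRRC2C. Over the whole lists it held 12 and 9, and the part of depth in this recurrence was not tested. The IGF2BP2 peaks recurred in 52.9% and 52.8% of cases in PRRC2C, 63.6% and 58.3% in PRRC2A and 43.9% and 56.2% in PRRC2B, against 48.2% and 51.6% of their lists. Intervals cover counting error only. Among IGF2BP2 peaks of at least 10 IP reads, 75% and 77.8% recurred in PRRC2C, from 12 and 9 peaks. In PRRC2B 88.2% and 85% did so, from 17 and 20, and in PRRC2A 88.9% and 90.9%, from 9 and 11. For PTBP1 peaks of that depth the shares were 91.4% and 95.7% in PRRC2C, 79.5% and 83.5% in PRRC2B and 80.4% and 84.4% in PRRC2A.

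Genes with the most similar spread of peaks over annotations were found by the distance between their shares in coding sequence, introns, 5′ UTR and 3′ UTR in the 4 libraries, which is 16 values, among 7799 genes with at least 50 peaks. For PRRC2C these were EP300, SPATA20 and GCN1, at distances of 9.54, 13.8 and 14.3 percentage points, against a median of 138 over all genes. EP300, a histone acetyltransferase, had 1 reproducible PTBP1 region enriched in both replicates over all annotations, SPATA20 1, and GCN1, a ribosome-binding activator of the kinase GCN2, 0, where PRRC2C had 15. EP300 had 10 such IGF2BP2 regions, SPATA20 and GCN1 0, and PRRC2C 2. For PRRC2A the nearest were NCL, the nucleolar protein nucleolin, ZSWIM8 and PSMD2, a proteasome subunit, at 14, 19.4 and 22.7 points. For PRRC2B they were MSN, an actin-membrane linker, SWAP70 and FLYWCH1, at 11.5, 13.9 and 14.3 points. PRRC2C stood 84.6 points from PRRC2A and 98.1 from PRRC2B, and PRRC2A and PRRC2B stood 171 points apart. By nearness to PRRC2A, PRRC2C ranked 271 and PRRC2B 1793 among the 7799 genes, both under the median distance of 210 points. By nearness to PRRC2C, PRRC2A ranked 1112 and PRRC2B 1559, both under the median of 138. By nearness to PRRC2B, PRRC2C ranked 7116 and PRRC2A 7736, both far above the median of 64.5.

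Of 20 stress granule proteins, 6 were higher in IGF2BP2 and 0 in PTBP1 by limma's adjusted p, beside 12.3% and 12.7% of all genes, with a median difference of −0.30, against −0.01 over all genes. CAPRIN1 and G3BP1, which nucleate stress granules together, had the largest differences, CAPRIN1 with 27 and 22 PTBP1 peaks against 39 and 36 IGF2BP2 peaks (−1.30 ± 0.18, SE) and G3BP1 with 24 and 24 against 29 and 39 (−1.17 ± 0.23, SE). Of 11 initiation factors, 4 were higher in IGF2BP2 and 0 in PTBP1, beside the same shares of all genes, and 2 and 0 without either PTBP1 replicate, with EIF4A1, the cap-complex helicase, at −0.94 ± 0.23 (SE) and EIF3B, an EIF3 subunit, at −0.93 ± 0.16 (SE). Among peaks of at least 10 IP reads the counts were 3 higher in PTBP1 and 4 in IGF2BP2 of 19 stress granule proteins, and 1 and 2 of 11 initiation factors, beside 34.5% of all genes higher in PTBP1 and 16.1% in IGF2BP2.

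Of 14 writers, erasers and readers of m6A, 3 were higher in PTBP1 and 1 in IGF2BP2, beside 12.7% and 12.3% of all genes, with a median difference of 0.22. Without IGF2BP2 replicate 2 these numbers were 3 and 4 and the median −0.32, and without PTBP1 replicate 2 they were 3 and 0. METTL3, the catalytic subunit of the m6A writer, had 11 and 11 PTBP1 peaks and 0 and 0 IGF2BP2 peaks. YTHDC2, a reader with helicase activity, had 24 and 15 against 3 and 0, a difference of 3.19 ± 0.87 (SE), and YTHDF1, a cytoplasmic reader, had 34 and 28 against 31 and 36, a difference of −0.81 ± 0.19 (SE). In coding sequence alone, 14, 10 and 9 genes of the stress granule, m6A and initiation lists were tested, and each list had 1 gene higher in PTBP1 and 0 in IGF2BP2, beside 16.4% and 2.26% of all genes. Without IGF2BP2 replicate 1 the genes higher in PTBP1 were 2, 6 and 3, and without IGF2BP2 replicate 2 they were 7, 3 and 3, beside 41% and 40.4% of all genes. Without either PTBP1 replicate no initiation factor was called. With all libraries the called genes were LARP1, a regulator of the translation of ribosomal protein mRNAs, with 29 and 27 PTBP1 peaks against 7 and 5 of IGF2BP2, METTL3 with 6 and 6 against 0 and 0, and EIF4G3, an initiation scaffold, with 16 and 15 against 3 and 2. Over all annotations LARP1 was higher in IGF2BP2, with 85 and 83 PTBP1 peaks against 108 and 96 of IGF2BP2. With TMM scaling the counts were 0 and 5 for stress granule proteins, 3 and 1 for m6A proteins and 0 and 4 for initiation factors.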

How the data were processed

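Both IP peak lists of each protein were analysed, 1 list per library. The samples number 8, and the 4 input libraries as such were not analysed here. Reads were aligned with HISAT2 to hg38, per the submitters' processing notes. The peak caller, annotation and filters were not given in the sources used here. The deposited log2 values, made by the authors and headed as a count, equal the log2 ratio of IP to input reads with a constant added per chromosome, as read from the values. The deposited −log10 p-values run from 0 to a limit of 400. Other deposited columns hold the overlap of the peak and its annotated feature in nt.

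From these, whole IP and input reads were recovered where the log2 was at least 0 and the −log10 p lay between its limits, with a tolerance of 1% on −log10 p. This gave reads for 98.4% and 98.3% of eligible PTBP1 peaks and 99.5% and 99.6% of eligible IGF2BP2 peaks, and the recovery was tested on simulated data. The median of 24 chromosome constants set the common scale. Reproducible regions needed an overlap of 1 nt on the same strand. Peak densities were tested with limma 3.58.1 in R 4.3.3 (trended variance, adjusted p under 0.05) on genes whose peaks summed to 10 or more across the 4 libraries. Shares of PRRC2A and PRRC2B were tested by exact permutation, and those of PRRC2C, on whose values the family was chosen, were left out of the test and its adjustment. Python 3.11.15, NumPy 2.4.6, pandas 2.3.3, SciPy 1.17.1 and Matplotlib 3.10.9 were used. RefSeq names matched 96.1% of 19768 gene names and all 3 members.

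The members, gene lists and tests were chosen with earlier results of these data known. Named genes are the members, the 2 genes of each list with the largest called difference in each direction, and the 3 genes nearest each member in peak shares. Alternatives were another pseudocount, TMM scaling, no filter, peaks of at least 10 IP reads, nucleotides covered, mirrored peaks left out, a replicate block, stricter enrichment and each replicate left out. Enriched peaks were also counted with the deposited values in place of the common scale. Replicate numbers did not pair the libraries, with a correlation of deviations of −0.002.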

Additional observations from a re-analysis of the deposited data

How the results depend on the processing

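Genes called for peak density numbered 3782 over all annotations and 1123 in coding sequence. Over all annotations the number was 6405 in nucleotides covered, and leaving out 1 library gave 2267 to 6388. In coding sequence it was 2121 with no filter on peaks and 2310 when peaks under 10 IP reads were left out, and leaving out 1 library gave 1109 to 3153. With the replicate block it was 4763 over all annotations and 2083 in coding sequence, where 1118 of the 1123 genes were shared. The cause of these shifts was not tested. Signs turned for PRRC2B density over all annotations (0.59 for peaks of at least 10 IP reads), for PRRC2B coding-sequence density (−0.14 with TMM scaling, −0.20 in nucleotides covered), and for PRRC2A coding-sequence density, which ranged from −0.14 to 0.021 with 1 library left out, 0.021 without PTBP1 replicate 1 and 0.01 without IGF2BP2 replicate 2. The share difference (PTBP1 minus IGF2BP2) turned in PRRC2B introns to 4.35 points in nucleotides and 11.9 points for peaks with 10 or more IP reads, and for such peaks in PRRC2C to −7.28 points in coding sequence and 1.21 points in introns. Alternatives added after seeing the data left 8 PTBP1 and 1 IGF2BP2 enriched regions in PRRC2B without minus-strand regions, and 8 and 2 without snoRNA regions. Without minus-strand peaks its 3′ UTR share difference was −6.00 points. At a log2 of 4 and a −log10 p of 5, PRRC2C kept 18 and 11 enriched PTBP1 peaks and 1 and 3 enriched IGF2BP2 peaks. PRRC2B kept 4 and 4 of PTBP1 and 3 and 6 of IGF2BP2, and PRRC2A 0 and 2 of PTBP1 and 0 and 0 of IGF2BP2. Over all genes, 5134 of 600615 and 4337 of 538802 PTBP1 peaks passed this bar. For IGF2BP2 they were 5882 of 362700 and 7768 of 341305. Leaving out a replicate gives no value for reproducible regions or recurrence, which need both. Few reads limit IGF2BP2 peaks, of which the median held 4 IP reads.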
